A study of Mus musculus with 20 samples.

Results

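The effect of IMO-8400 on IL-23-injected mouse skin was measured by setting 5 skin arrays from mice that received IMO-8400 against 5 from mice that received saline, 10 of the 20 arrays in the series. Members were chosen by their labels alone: treatment IMO-8400 or saline, both with the IL-23-induced condition. All animals were female C57BL/6 mice, bought at 6 weeks of age and housed for 1 week. IMO-8400 mice and saline mice alike received 3 µg of IL-23 by intradermal injection into the back on days 1 to 4, so the comparison is between 2 groups of inflamed skin. IMO-8400, at 15 mg/kg, or the vehicle was given under the skin at a distal site on days 4, 5 and 6, and skin at the IL-23 injection site was taken on day 7. The vehicle is labelled saline and is named PBS in the study's methods. The other 10 arrays, 5 from IL-23-injected mice given IMO-3100 on the same schedule and 5 from naïve skin, served here for the estimate of spread and as values set beside. The deposited design text speaks of 2 doses of 1 antagonist whereas the labels name 2 antagonists, and the labels were followed. The model is a short cytokine challenge at 1 site, and whole skin was profiled, so every value is a mixture of epidermis, dermis, appendages, fat, the thin skin muscle and infiltrating cells.

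IL-23 is a cytokine of dendritic cells and macrophages that sustains T cells making IL-17A and IL-22. In skin these cytokines act on keratinocytes, which then release neutrophil-attracting chemokines and antimicrobial peptides, divide faster and change their cornification program, much as in psoriasis. TLR7, TLR8 and TLR9 are receptors of the endosome that sense single-stranded RNA or unmethylated CpG DNA and signal through the adaptor MyD88 to NF-kB and interferon regulatory factors. The paper states that mouse TLR8 has been regarded as nonfunctional, and proposes from recent evidence that it regulates other TLRs. IMO-8400 is a synthetic oligonucleotide described as an antagonist of TLR7, TLR8 and TLR9, and IMO-3100 as one of TLR7 and TLR9.

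Levels are log2 GCRMA values, which start at 2.02 on every array. A group was called near background where all 5 of its values were below 3. Means are given ± SD over 5 mice a group. Medians per array were 6.23 to 6.29 in IMO-8400 mice and 6.09 to 6.18 in saline mice. Over the tested probe-sets, arrays correlated at 0.989 to 0.994 within IMO-8400 mice and 0.984 to 0.994 within saline mice. Saline mice 4 and 5 averaged correlations of 0.979 and 0.977 with the IMO-8400 arrays, above the 0.969 to 0.972 of saline mice 1 to 3. Mouse numbers are names within a group and pair nothing. Differentially expressed genes (DEGs) are those with a fold change (FCH) above 2 and a false-discovery rate (FDR) under 0.05 in a limma fit over all tested probe-sets. Each adjusted p below comes from that fit, adjusted over all tested probe-sets, and a single number in parentheses after a gene is its log2 fold change, IMO-8400 over saline. Where 1 group was near background a lower bound of the fold is given, with values under 3 raised to 3.

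The skin transcriptome differed in both directions. Of 30960 tested probe-sets, 1380 were higher (4.46%) and 1110 lower (3.59%) than in saline mice. These probe-sets carried 796 named genes that were higher and 812 that were lower. With each gene represented by its brightest tested probe-set, 635 of 13909 genes were higher (4.57%) and 579 lower (4.16%). The last 2 percentages are the background against which the lists below are read. The median log2 fold change over all genes was 0.0034, with quartiles at -0.27 and 0.30. The falls reached further than the rises: 83 lower DEGs exceeded 8-fold and 40 higher DEGs did. In 110 DEGs the IMO-8400 group was near background, and in 44 the saline group was.

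**Figure D1:**
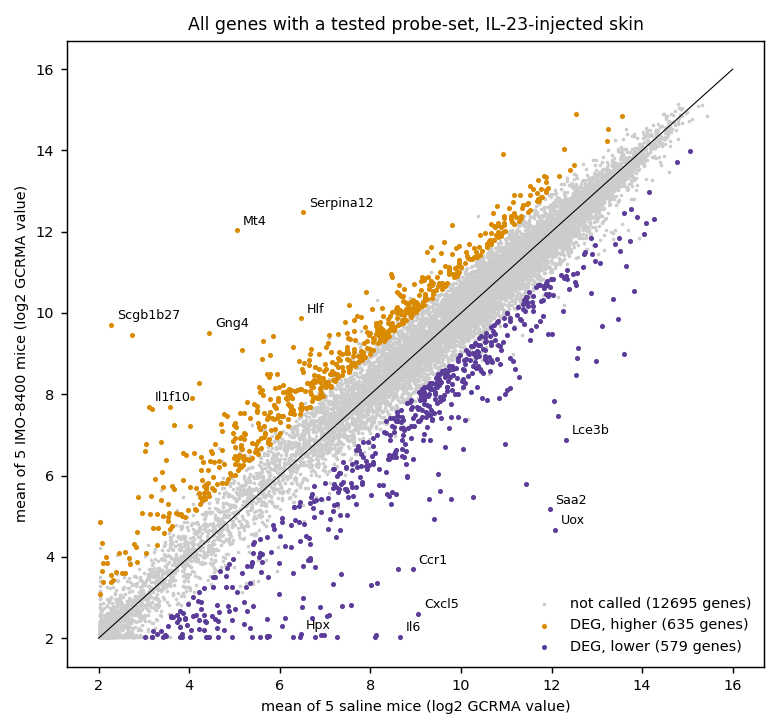
Mean log2 GCRMA value of 5 IMO-8400 mice (vertical axis) against 5 saline mice (horizontal axis) for 13909 genes, 1 point a gene, with 635 higher DEGs in orange, 579 lower DEGs in purple and the line of equal values. Scgb1b27 stands at the upper left, near background in saline mice and at 9.71 in IMO-8400 mice, and Saa2 and Uox stand at the lower right.

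The receptors that IMO-8400 is directed at showed no called change in their own mRNA. Tlr7 had values of 10.55, 10.65, 10.74, 9.57 and 11.01 in the 5 IMO-8400 mice, against 11.12, 10.96, 10.43, 10.01 and 10.28 in the 5 saline mice (log2 fold change -0.06, 95% CI -1.35 to 1.24, adjusted p = 0.976), and the groups overlapped. Its other 2 tested probe-sets differed by 0.28 and 0.27. Tlr8 lay close to background, at 2.02 to 3.85 in IMO-8400 mice and 3.85 to 4.91 in saline mice (log2 fold change -1.12, adjusted p = 0.0625). Leaving out IMO-8400 mouse 3 or 5 brought the adjusted p of Tlr8 to 0.0431 or 0.0428, with log2 fold changes of -1.30 in both. Tlr8 was also called lower with quantile normalization (log2 fold change -1.16, adjusted p = 0.0479). Tlr9 had no tested probe-set of its own. In the list of endosomal TLRs and the proteins that traffic, cleave or serve them, 0 of 23 tested genes rose, 1 fell and 22 did not pass, with a median log2 fold change of -0.21. Lower members numbered 0 without IMO-8400 mouse 4 or saline mouse 3 and 2 without IMO-8400 mouse 3 or 5. They also numbered 2 with quantile normalization or the 2 groups alone. The one that fell was Myd88, the shared adaptor, which averaged 10.63 ± 0.17 in IMO-8400 mice and 11.67 ± 0.13 in saline mice (FCH 2.05, adjusted p = 0.000559). Myd88 lost its call when IMO-8400 mouse 4 or saline mouse 3 was left out (log2 fold change -0.99 to -0.9999, adjusted p = 0.00213 to 0.0023). Ctsb, an endosomal protease and the brightest member that did not pass, averaged 14.70 ± 0.10 in IMO-8400 mice and 14.66 ± 0.07 in saline mice. A dim probe-set of Ctsb rose by 1.24 (adjusted p = 0.0191), and with each gene represented by its probe-set of largest SD 1 gene of the list was higher. Of the 13 tested cell-surface TLRs and coreceptors none passed, 12 had a negative log2 fold change, and their median was -0.35. The list mean was 9.65 to 10.34 in IMO-8400 mice and 10.45 to 10.81 in saline mice. In this list 1 gene was lower with a stricter filter, values under 4 set to 4, another variance prior or the probe-set of largest SD. Fitting the 2 groups alone gave 2.

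Il6 and Il17a were near background in every IMO-8400 mouse, and Il1b and Ifng were lower without overlap. Il6, a cytokine that favors IL-17-producing T cells, had values of 2.02, 2.03, 2.07, 2.03 and 2.02 in the 5 IMO-8400 mice, against 7.68, 8.96, 10.36, 7.36 and 8.91 in the 5 saline mice. No IMO-8400 mouse exceeded 2.07 and no saline mouse lay below 7.36, a fall of at least 50.3-fold (adjusted p = 2.14e-09). Naïve skin averaged 2.09 ± 0.15, also near background.

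Il17a, the signature cytokine of the IL-23 axis, had values of 2.03, 2.03, 2.19, 2.03 and 2.03 in the 5 IMO-8400 mice, against 6.49, 5.32, 5.67, 4.78 and 6.29 in the 5 saline mice. The groups were far apart, and the fall was at least 6.54-fold (adjusted p = 4.88e-09). Ifng, the interferon of Th1 and NK cells, had values of 2.89, 2.89, 3.13, 2.94 and 3.11 in the 5 IMO-8400 mice, against 6.53, 8.39, 6.89, 5.78 and 5.02 in the 5 saline mice (log2 fold change -3.53, adjusted p = 3.4e-05). All saline values lay above the IMO-8400 values. Il1b, the inflammasome cytokine, had values of 9.49, 9.10, 10.37, 10.25 and 10.10 in the 5 IMO-8400 mice, against 13.57, 13.81, 14.00, 12.80 and 13.12 in the 5 saline mice, again without overlap (log2 fold change -3.60, 95% CI -4.31 to -2.89, adjusted p = 2.58e-06). Il1b remained well above background in IMO-8400 mice, and naïve skin averaged 7.68 ± 0.59.

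Not all of the pathway fell with its ligands. In the list of IL-17 and IL-23 ligands, receptors and signaling genes, 2 of 19 tested genes rose, 5 fell and 12 did not pass (median -0.09). Besides Il17a, the falls included Stat4 (-2.48), a transcription factor of IL-12 and IL-23 signaling, Il12rb1 (-1.77), the receptor chain shared by both cytokines, and Il21r (-1.51). Il17rd (1.28), an IL-17 receptor family member, and Il12rb2 (1.12), the IL-12-specific chain, rose. Il12rb2 lost its call when IMO-8400 mouse 4 was left out (log2 fold change 0.96, adjusted p = 0.0213). Higher members numbered 1 without IMO-8400 mouse 4. Rora, a transcription factor of type 17 lymphocytes that other skin cells also express, was the brightest member without a call, at 12.67 ± 0.11 in IMO-8400 mice and 11.96 ± 0.08 in saline mice. In the IL-1 and IL-36 families, 1 of 22 tested genes rose, 6 fell and 15 did not pass. Nlrp3 (-1.92), the inflammasome sensor, Il18bp (-1.90), the decoy for IL-18, and Il33 (-1.78), an alarmin, fell alongside Il1b. Il1f10, which encodes IL-38, a family member regarded as a receptor antagonist, went the other way: its values were 7.58, 7.80, 7.51, 8.59 and 6.97 in the 5 IMO-8400 mice, against 2.98, 2.88, 3.11, 2.82 and 3.81 in the 5 saline mice (FCH 23.8, adjusted p = 0.000117). Its lowest IMO-8400 value was 6.97 and its highest saline value 3.81. The difference between saline and naïve skin was -6.22 (95% CI -7.58 to -4.87).

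Genes that IL-17 induces in keratinocytes had the highest share of called falls among the 49 lists, which is a description and was not tested: 0 of 19 tested genes rose, 13 fell and 6 did not pass, and the median log2 fold change was -2.16. In this list 1 gene was higher without IMO-8400 mouse 5 and with the 2 groups alone. Per mouse, the mean of the list was 6.84 to 7.68 in IMO-8400 mice and 9.20 to 10.53 in saline mice, against 4.80 to 5.23 in naïve mice. Cxcl5 (-6.46), a neutrophil chemokine, Defb4 (at least 15.7-fold lower), a beta-defensin, Il24 (at least 13.7-fold lower), an IL-20 family cytokine, and Wfdc12 (-4.66), a protease inhibitor, had the largest falls. Il24 kept its call at a log2 fold change of -3.99 without saline mouse 3 (all mice, -4.76). Cxcl1, another neutrophil chemokine, had values of 6.52, 7.69, 8.66, 8.51 and 7.95 in the 5 IMO-8400 mice, against 9.90, 10.88, 11.72, 9.88 and 10.46 in the 5 saline mice (log2 fold change -2.70, 95% CI -3.88 to -1.52, adjusted p = 0.00206). It was lower in every IMO-8400 mouse than in any saline mouse, but stayed above background. S100a9, a calprotectin subunit, was the brightest member that did not pass, at 14.85 ± 0.27 in IMO-8400 mice and 15.43 ± 0.04 in saline mice (log2 fold change -0.58), and Ccl20, the ligand of CCR6, differed by 1.11 without passing (adjusted p = 0.0623).

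The acute-phase products of IL-6 signaling showed a split. Saa2, a serum amyloid A gene, had values of 5.44, 4.46, 5.01, 4.94 and 5.97 in the 5 IMO-8400 mice, against 11.89, 11.82, 12.27, 12.13 and 11.67 in the 5 saline mice (FCH 111, adjusted p = 2.23e-08), with more than 5 log2 units between the nearest mice of the groups. Its near-identical neighbor Saa1 fell by 6.25 on the log2 scale at 1 probe-set and by 4.62 at another, and cross-hybridization between the pair cannot be told apart from expression. Hpx, the heme scavenger hemopexin, went near background in IMO-8400 mice, at least 11-fold lower, and Osm, the IL-6 family cytokine oncostatin M, fell by 3.76 on the log2 scale. In the whole IL-6, gp130 and acute-phase list, 0 of 18 tested genes rose, 5 fell and 13 did not pass (median -0.86). Lower members numbered 8 without saline mouse 1 and 9 without saline mouse 4 or without saline mice 4 and 5. Orm1, an acute-phase glycoprotein, averaged 13.79 ± 0.06 in IMO-8400 mice and 13.65 ± 0.09 in saline mice and was the brightest member without a call.

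**Figure D2:**
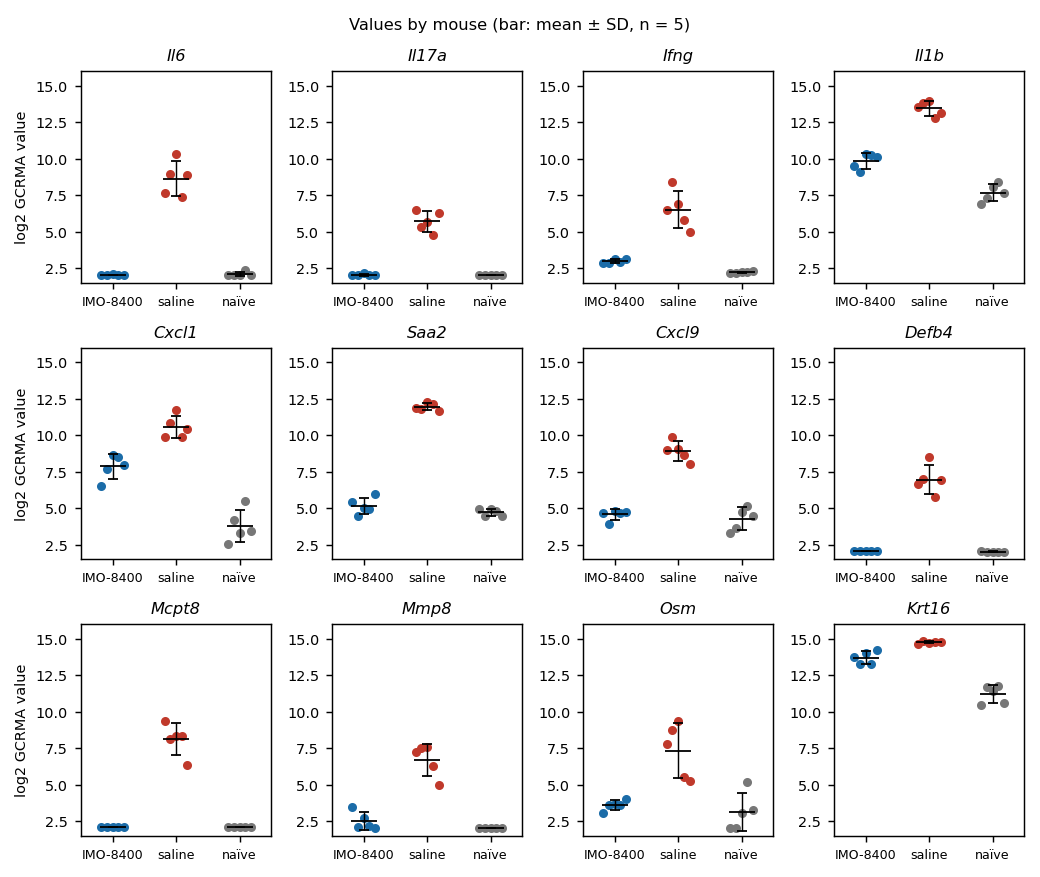
Log2 GCRMA values of 12 genes in IMO-8400, saline and naïve mice, 1 point a mouse, with the mean and SD as a bar (n = 5 each) and the same vertical range in every panel. Il6, Il17a, Defb4 and Mcpt8 lie near background in all IMO-8400 mice, while Krt16 lies above 13 in every IL-23-injected mouse of both groups.

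The 300 bases around the annotated start of Il6, Cxcl9 and Saa2 are shown because these falls were among the largest of their lists and NF-kB is the textbook endpoint of MyD88 signaling. Sequences are RefSeq promoters of build GRCm38.p6, 250 bases before to 50 after the start, written 5′ to 3′ on the gene's strand, with motif matches on either strand in capitals. The motifs were GGG and CC with any 5 bases between (NF-kB), GAAA and GAAA with any 2 between (ISRE, the interferon response element) and TTC and GAA with any 3 between (STAT). Windows lie at chr5:30012864-30013163, plus strand (Il6), chr5:92328030-92328329, minus strand (Cxcl9) and chr7:46751583-46751882, plus strand (Saa2).
Il6: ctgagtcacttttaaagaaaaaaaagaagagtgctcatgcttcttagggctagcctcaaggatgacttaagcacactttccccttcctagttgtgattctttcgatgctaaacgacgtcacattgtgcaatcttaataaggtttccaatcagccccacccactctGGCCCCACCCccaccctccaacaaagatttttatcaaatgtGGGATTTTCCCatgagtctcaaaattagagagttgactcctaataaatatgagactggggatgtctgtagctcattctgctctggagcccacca
Cxcl9: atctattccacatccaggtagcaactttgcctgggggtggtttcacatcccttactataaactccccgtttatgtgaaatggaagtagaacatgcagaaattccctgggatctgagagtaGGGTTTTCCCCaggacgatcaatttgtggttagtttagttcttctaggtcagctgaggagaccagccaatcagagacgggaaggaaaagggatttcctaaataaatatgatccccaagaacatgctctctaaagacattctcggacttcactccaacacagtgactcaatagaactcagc
Saa2: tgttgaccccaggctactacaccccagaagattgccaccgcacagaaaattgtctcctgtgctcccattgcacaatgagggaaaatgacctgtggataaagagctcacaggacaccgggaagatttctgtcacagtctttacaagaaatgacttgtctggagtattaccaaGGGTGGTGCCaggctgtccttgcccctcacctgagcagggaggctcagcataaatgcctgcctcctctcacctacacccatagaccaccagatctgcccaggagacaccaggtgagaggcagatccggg
All capitals in these windows were matches to the NF-kB letters, and overlapping matches run together. Such matches are common: 59.3% of 540 windows of lower DEGs held one, against 65.3% of 14163 windows of all tested genes. The ISRE letters were found in 6.48% of the windows of lower DEGs, 1.71% of 642 windows of higher DEGs and 3.01% of all. The STAT letters were found in 10.2%, 4.83% and 6.95% of the same sets. A match is a run of letters and not a binding site, and no test was made.

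Called falls made up 61.1% of tested genes of the interferon-gamma axis and 8.7% of type I interferon-stimulated genes, against 4.16% of all genes. On the interferon-gamma axis, 0 of 18 tested genes rose, 11 fell and 7 did not pass (median -1.37), and 18 of 18 had a negative log2 fold change. Cxcl9, a CXCR3 ligand, had values of 4.70, 3.92, 4.84, 4.69 and 4.71 in the 5 IMO-8400 mice, against 9.01, 9.90, 9.06, 8.66 and 8.07 in the 5 saline mice (log2 fold change -4.37, 95% CI -5.12 to -3.61, adjusted p = 4.83e-07). The other CXCR3 ligand Cxcl11 went near background, at least 15.1-fold lower, with saline values of 8.10, 9.61, 8.88, 4.93 and 3.08. Cxcl11 kept its call at a log2 fold change of -4.17 without saline mouse 2 or -5.80 without saline mouse 5 (all mice, -4.84). Gbp2b, a guanylate-binding GTPase, fell by 4.70 on the log2 scale. Gbp7, of the same family, averaged 11.94 ± 0.15 in IMO-8400 mice and 12.86 ± 0.21 in saline mice at its brightest probe-set and did not pass (log2 fold change -0.92, and -1.01 with a call without saline mouse 5), while its other probe-set fell by 1.43 (adjusted p = 0.0155). Of the type I interferon-stimulated genes, 23 of 23 tested genes had a negative log2 fold change, with a median of -0.62. As calls, 0 rose, 2 fell and 21 did not pass. Those 2 were Stat2 (-1.02), a subunit of the type I interferon transcription complex, and Zbp1 (-1.69), a nucleic acid sensor. Stat2 lost its call when IMO-8400 mouse 1, 2, 3 or 4 or saline mouse 1, 2 or 3 was left out (log2 fold change -0.83 to -1.07, adjusted p = 0.053 to 0.106). Zbp1 lost its call when IMO-8400 mouse 1, 2, 3 or 4 or saline mouse 1, 2 or 3 was left out (log2 fold change -1.56 to -1.73, adjusted p = 0.0538 to 0.0763). Lower members numbered 0 without IMO-8400 mouse 1, 2, 3 or 4 or saline mouse 1, 2 or 3. Ifi27l2a, the brightest of the type I list, averaged 14.08 ± 0.10 in IMO-8400 mice and 14.28 ± 0.16 in saline mice. Per mouse, the mean of the type I list was 10.62 to 11.59 in IMO-8400 mice and 11.05 to 12.33 in saline mice, with overlap, whereas that of the interferon-gamma list was 8.28 to 8.81 in IMO-8400 mice and 9.55 to 11.12 in saline mice, without overlap. Whether the 2 lists differ in their change was not tested, and 11 of 18 and 2 of 23 are counts only.

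For antigen presentation, 2 of 12 tested class I loading and immunoproteasome genes fell, Erap1 (-1.26), the peptide-trimming protease, and Psmb10 (-1.13), an immunoproteasome subunit. B2m, the class I light chain, averaged 14.54 ± 0.03 in IMO-8400 mice and 14.57 ± 0.04 in saline mice. None of 10 class II genes passed, and Cd74, the invariant chain, averaged 14.80 ± 0.09 in IMO-8400 mice and 14.82 ± 0.06 in saline mice.

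Markers of several leukocytes were lower in IMO-8400 skin. In a bulk sample fewer cells of a type and less RNA per cell cannot be told apart, and this holds for every cell type list here. Neutrophil genes fell in 7 of 12 tested members (median -1.81). Mmp8 (-4.22), neutrophil collagenase, Trem1 (at least 6.74-fold lower) and Trem3 (at least 3.1-fold lower), activating receptors, and Csf3r (-2.35), the G-CSF receptor, had the largest changes. Trem1 kept its call at a log2 fold change of -3.02 without saline mouse 3 or -4.42 without saline mouse 4 (all mice, -3.70). Trem3 lost its call with values under 4 set to 4 (log2 fold change -0.84, adjusted p = 0.0587). Il1r2, a decoy receptor that other skin cells also express, averaged 12.15 ± 0.16 in IMO-8400 mice and 11.49 ± 0.19 in saline mice and did not pass. The per-mouse mean of the neutrophil list was 6.14 to 6.82 in IMO-8400 mice and 7.73 to 8.97 in saline mice.

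Of cytotoxic and NK cell genes, 7 of 16 fell, led by Gzmb (-2.53), granzyme B, Ncr1 (-2.17), the NK receptor NKp46, Klre1 (-1.95) and Eomes (-1.55), while Gzma, granzyme A, averaged 12.05 ± 0.45 in IMO-8400 mice and 13.41 ± 0.44 in saline mice without passing (adjusted p = 0.265). Fitted on the 2 groups alone, Gzma was called lower (log2 fold change -1.36, adjusted p = 0.00453). Eomes lost its call in that fit (adjusted p = 0.0797) and with values under 4 set to 4 (log2 fold change -0.92). At its other probe-set Eomes fell by 1.38 (adjusted p = 0.00326). Of T cell genes, 8 of 20 fell. Cd6 (-2.09), Themis (-1.98), Cd8b1 (-1.98) and Cd27 (-1.78) changed most. Cd6 and Cd8b1 were dim and lost their call with values under 4 set to 4 (log2 fold changes -0.80 and -0.75), as did Cd8b1 with the 2 groups alone (adjusted p = 0.052). In contrast, Thy1 averaged 12.11 ± 0.20 in IMO-8400 mice and 12.56 ± 0.08 in saline mice and Cd4 differed by 1.06 (adjusted p = 0.207), neither passing. The defining T cell chain Cd3e differed by -0.17, without passing. The list mean per mouse was 7.05 to 7.67 in IMO-8400 mice and 7.76 to 8.52 in saline mice for T cells and 7.92 to 8.67 in IMO-8400 mice and 8.84 to 10.10 in saline mice for cytotoxic and NK cells.

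Of tested mast cell and basophil genes, 4 of 13 fell. Mcpt8, a protease made by mouse basophils, had values of 2.09, 2.07, 2.09, 2.08 and 2.09 in the 5 IMO-8400 mice, against 9.38, 8.15, 8.35, 8.36 and 6.37 in the 5 saline mice. It was near background in all 5 IMO-8400 mice, at least 34.8-fold lower, and averaged 2.08 ± 0.01 in naïve skin. Hdc (-2.85), which makes histamine, Fcer1a (-2.56), a chain of the IgE receptor, and Cd200r3 (-1.54) also fell. The connective tissue mast cell protease Cma1 averaged 13.13 ± 0.16 in IMO-8400 mice and 13.27 ± 0.16 in saline mice and Mcpt4 differed by -0.03, neither passing.

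Macrophage markers were mostly without a call, but 19 of 23 had a negative log2 fold change (median -0.24). Of 23 tested macrophage and monocyte genes 2 fell, the C-type lectins Clec4e (-2.56) and Clec7a (-1.95), and Lyz2, lysozyme, averaged 14.93 ± 0.08 in IMO-8400 mice and 14.97 ± 0.06 in saline mice. Clec4e lost its call when IMO-8400 mouse 1 or 4 or saline mouse 1, 2 or 3 was left out (log2 fold change -2.29 to -2.46, adjusted p = 0.0524 to 0.0699). Clec4e also fell at its other probe-set, by 3.26 (adjusted p = 0.00312). Lower members numbered 1 without IMO-8400 mouse 1 or 4 or saline mouse 1, 2 or 3, 1 with no filter on low values, and 6 with the 2 groups alone. The list mean was 12.15 to 12.80 in IMO-8400 mice and 12.94 to 13.22 in saline mice, without overlap. None of 13 dendritic and Langerhans cell genes and none of 9 B cell genes passed, with medians of 0.13 and -0.03. Ighm, the brightest B cell gene, averaged 12.90 ± 0.73 in IMO-8400 mice and 12.92 ± 0.95 in saline mice. The red blood cell list had 2 tested genes, at or near background in both groups.

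Signals that recruit or sustain these cells fell in part. Among CC chemokines and receptors, 1 of 18 tested genes rose, 2 fell and 15 did not pass. The fallen numbered 6 with the 2 groups alone and 4 without saline mice 4 and 5, and the risen 0 without saline mouse 3. Ccr1, a receptor of neutrophils and monocytes, averaged 3.70 ± 0.94 in IMO-8400 mice and 8.93 ± 1.08 in saline mice (FCH 37.5, adjusted p = 0.000497), Ccr7 fell by 2.51 on the log2 scale, and Ccl27a, a chemokine of resting keratinocytes, rose by 1.14. Ccl27a lost its call when saline mouse 3 was left out (log2 fold change 0.99, adjusted p = 0.00948). Ccl6, the brightest member without a call, averaged 14.24 ± 0.21 in IMO-8400 mice and 14.62 ± 0.09 in saline mice. Of common gamma chain cytokines and receptors, 5 of 14 fell, among them Il2ra (-1.79) and Il4ra (-1.47). Of the TNF superfamily, 4 of 19 fell, led by Fasl (-2.74) and Tnfsf14 (-2.71), while Tnf itself differed by -0.40 without passing. Of NF-kB subunits and regulators, Bcl3 (-1.35) and Nfkbid (-1.27), both atypical IkB proteins, fell and 13 others did not pass, with Nfkbia at 13.84 ± 0.13 in IMO-8400 mice and 13.79 ± 0.04 in saline mice. Of type 2 genes, 1 of 14 tested genes rose, 5 fell and 8 did not pass, with Chil3 (-3.44), a chitinase-like protein, falling most and Tslp (1.75), a keratinocyte alarmin, rising. Tslp lost its call when IMO-8400 mouse 1 or saline mouse 3 was left out (log2 fold change 1.55 to 1.64, adjusted p = 0.0559 to 0.0655). Higher members numbered 0 without IMO-8400 mouse 1 or saline mouse 3. Lower members numbered 3 without IMO-8400 mouse 3 or saline mouse 2 or 3. Of endothelial and leukocyte adhesion genes, Sele (-2.31) and Selp (-1.65), the selectins of activated endothelium, and Lipg (-1.88), endothelial lipase, fell, with 3 of 21 lower, 5 without saline mice 4 and 5, and Icam1 averaged 11.73 ± 0.10 in IMO-8400 mice and 12.36 ± 0.14 in saline mice.

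**Figure D3:**
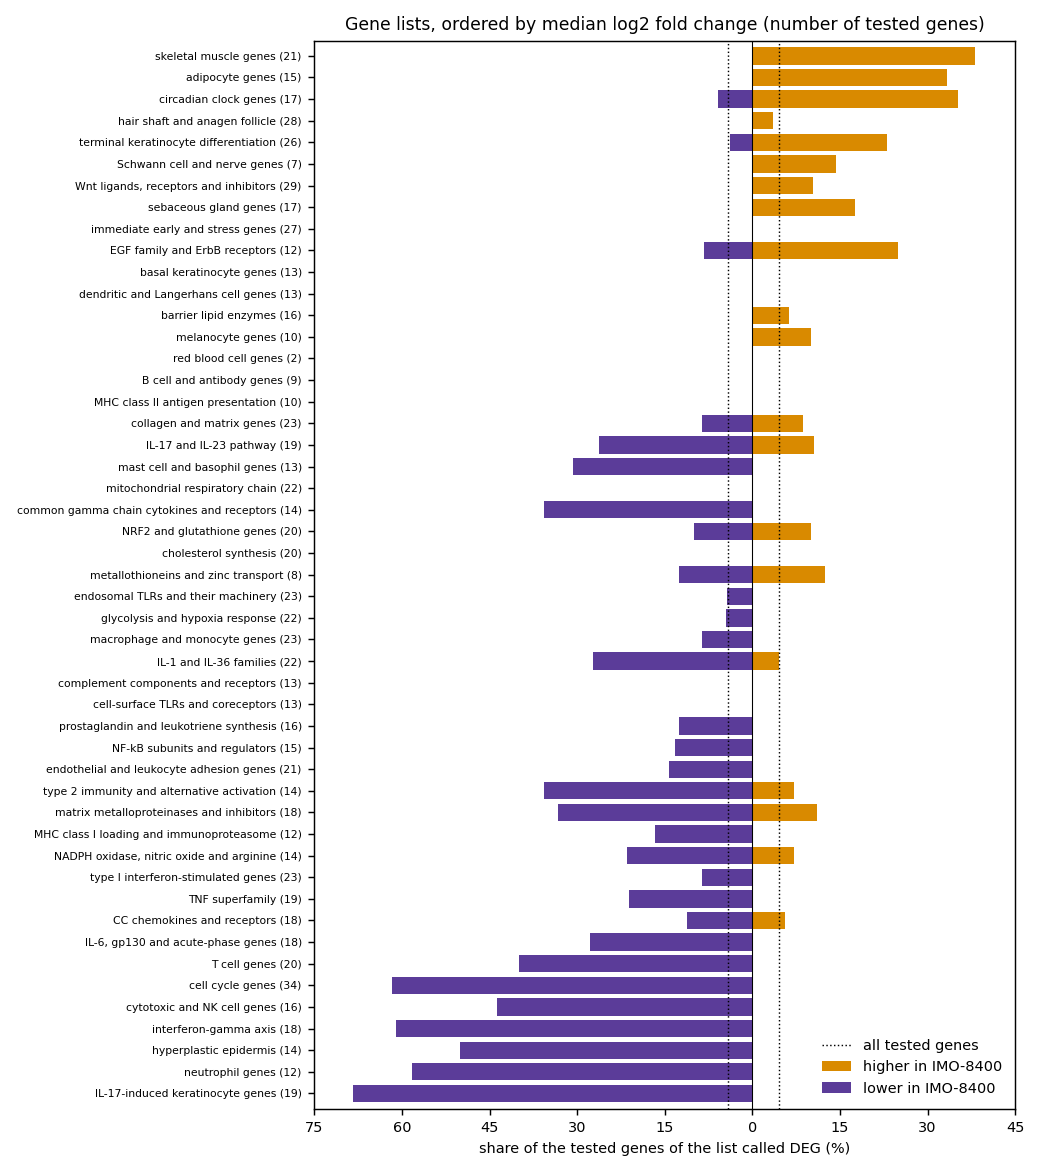
Share of the tested genes of each of 49 lists called higher (orange, to the right) or lower (purple, to the left) in IMO-8400 mice than in saline mice, ordered by median log2 fold change, with the number of tested genes in parentheses. Dotted lines mark 4.57% higher and 4.16% lower, the shares among all 13909 tested genes, and the longest bar is that of the IL-17-induced keratinocyte genes, 13 of 19 lower.

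In the epidermis, genes of the thickened, wound-like state fell in part and genes of normal cornification rose in part. Krt16, a keratin of the hyperproliferative epidermis, had values of 13.74, 13.31, 14.04, 13.30 and 14.24 in the 5 IMO-8400 mice, against 14.65, 14.84, 14.75, 14.82 and 14.80 in the 5 saline mice (log2 fold change -1.05, 95% CI -1.74 to -0.35, adjusted p = 0.025). The groups did not overlap, but all 10 values were above 13 and naïve skin averaged 11.20 ± 0.62. Krt16 lost its call when IMO-8400 mouse 2 or 4 was left out (log2 fold change -0.94, adjusted p = 0.0635 to 0.0669). In the hyperplastic epidermis list, 0 of 14 tested genes rose, 7 fell and 7 did not pass (median -1.39). Sprr2f (-4.22) and Lce3a (-4.15), cornified envelope proteins, Serpinb3a (-2.39) and Krt6a (-2.10) had the largest falls. Lce3a kept its call at a log2 fold change of -3.46 without IMO-8400 mouse 4 (all mice, -4.15). Stfa3, a stefin, averaged 15.08 ± 0.14 in IMO-8400 mice and 15.24 ± 0.04 in saline mice and did not pass. Members of the Sprr2 and Lce families share sequence, and their probe-sets may not separate them.

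Of terminal differentiation genes, 6 of 26 tested genes rose, 1 fell and 19 did not pass (median 0.47), and the list mean was 12.84 to 13.08 in IMO-8400 mice and 11.73 to 12.35 in saline mice, without overlap. Mt4, the metallothionein of stratified epithelia, had values of 12.55, 11.93, 11.14, 12.83 and 11.76 in the 5 IMO-8400 mice, against 3.94, 4.07, 4.10, 6.85 and 6.33 in the 5 saline mice. All IMO-8400 mice lay above 11, and saline mice 4 and 5 lay above saline mice 1 to 3 (log2 fold change 6.99, 95% CI 5.90 to 8.07, adjusted p = 1.25e-07). Naïve skin averaged 12.73 ± 0.70. Lor, the main protein of the cornified envelope, averaged 14.89 ± 0.27 in IMO-8400 mice and 12.54 ± 0.67 in saline mice (log2 fold change 2.35, adjusted p = 2.4e-05), and its other 2 tested probe-sets rose by 1.99 and 1.42. Lce1m (2.98), a late envelope protein, and Krt77 (1.76), a suprabasal keratin, also rose, Rptn (-1.17), repetin, fell, and Klk7, a desquamation protease, averaged 14.32 ± 0.08 in IMO-8400 mice and 14.40 ± 0.07 in saline mice. Flg, filaggrin, rose by 1.58 (adjusted p = 4.54e-05). None of 13 basal keratinocyte genes passed, with Krt14 at 14.64 ± 0.08 in IMO-8400 mice and 14.80 ± 0.10 in saline mice, and among barrier lipid enzymes Alox12e (1.48) alone passed of 16.

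Cell cycle genes were lower: 0 of 34 tested genes rose, 21 fell and 13 did not pass (median -1.21), and 34 of 34 had a negative log2 fold change. Bub1 (-1.97), a spindle checkpoint kinase, Mcm10 (-1.76), a replication factor, Cenpe (-1.68), a kinetochore motor, and Aurka (-1.67), Aurora A, changed most, and Pcna, the replication clamp, averaged 13.17 ± 0.17 in IMO-8400 mice and 13.72 ± 0.06 in saline mice without passing. The list mean was 8.71 to 9.46 in IMO-8400 mice and 10.02 to 10.43 in saline mice, without overlap, and 9.13 to 10.52 in naïve mice. Growth factor genes of the EGF family went both ways, with Epgn (-2.18), epigen, lower and Btc (1.22), betacellulin, Egf (1.13) and the feedback inhibitor Lrig1 (1.05) higher. Btc lost its call when IMO-8400 mouse 1 or 2 or saline mouse 3 was left out (log2 fold change 1.09 to 1.14, adjusted p = 0.0507 to 0.0548). Lrig1 lost its call when saline mouse 1 or 2 was left out (log2 fold change 0.96 to 0.97, adjusted p = 0.0009 to 0.00109).

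Matrix remodeling genes went both ways. In the list of metalloproteinases and their inhibitors, 2 of 18 tested genes rose, 6 fell and 10 did not pass. The collagenases Mmp13 (-4.58) and Mmp8, the stromelysin Mmp10 (at least 5.25-fold lower) and the inhibitor Timp1 (-3.28) fell, while the inhibitors Timp4 (3.85) and Timp3 (1.19) rose and Timp2 averaged 14.01 ± 0.08 in IMO-8400 mice and 13.24 ± 0.26 in saline mice at its brightest probe-set, below the 2-fold limit. At 3 of its dimmer probe-sets Timp2 rose, by 1.13, 1.12 and 1.45. Mmp10 kept its call at a log2 fold change of -2.62 without saline mouse 3 (all mice, -3.37). Among collagens and matrix proteins, Tnc (-2.49), tenascin C, and Col12a1 (-2.02) fell, Col4a6 (3.19) and Col4a5 (2.12), basement membrane chains, rose, and Col3a1 averaged 14.50 ± 0.08 in IMO-8400 mice and 14.57 ± 0.04 in saline mice. Of oxidant defense genes, Slc7a11 (-4.76), the cystine importer, and Gsta4 (FCH 8.01 lower) fell, Gsta3 (1.59) and Gstm1 (1.26) rose and Txn1 averaged 13.77 ± 0.06 in IMO-8400 mice and 14.05 ± 0.06 in saline mice.

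Among enzyme lists, 12.5% of prostaglandin and leukotriene genes and 28.6% of NADPH oxidase, nitric oxide and arginine genes were called. Among all genes 4.57% were higher and 4.16% lower. Of 16 prostaglandin and leukotriene genes, Ptgs2 (-1.78), inducible cyclooxygenase, and Alox15 (-1.49), 12/15-lipoxygenase, fell. Alox15 lost its call when IMO-8400 mouse 2, 4 or 5 or saline mouse 1, 2, 3 or 4 was left out (log2 fold change -1.15 to -1.50, adjusted p = 0.0645 to 0.11). Lower members numbered 1 without IMO-8400 mouse 2, 4 or 5 or saline mouse 1, 2, 3 or 4. Of 14 NADPH oxidase, nitric oxide and arginine genes, Arg1 (-1.98), arginase, Duox1 (-1.16), a dual oxidase, and Gch1 (-1.06), which makes the cofactor of nitric oxide synthases, fell, and Nos1 (FCH 4.76), the neuronal synthase, rose. Arg1 lost its call when IMO-8400 mouse 1 or 3 or saline mouse 2 or 3 was left out (log2 fold change -1.52 to -1.96, adjusted p = 0.0524 to 0.081). Duox1 lost its call when saline mouse 5 was left out (log2 fold change -0.99, adjusted p = 0.00435). Gch1 lost its call when IMO-8400 mouse 4 or saline mouse 3 was left out (log2 fold change -0.90 to -0.99, adjusted p = 0.0283 to 0.0302). Lower members numbered 1 without saline mouse 3. At other probe-sets, none of them called, Nos1 differed by 0.50 and 0.16, Ptgs2 by -1.01 and Gch1 by -0.24. Slc39a14 (-1.56), a zinc importer, fell. Of 7 Schwann cell and nerve genes, and likewise of 10 melanocyte genes, 1 rose, Sox10 (1.78), a neural crest factor that stands in both lists. Sox10 was dim: its log2 fold change was 0.9949 without a call (adjusted p = 0.0809) with values under 4 set to 4, which left both lists with 0 calls, and its other probe-set, near the floor, differed by 0.15.

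Several of the largest falls were in genes outside these lists. Uox, urate oxidase, had values of 2.65, 2.08, 7.00, 3.60 and 8.01 in the 5 IMO-8400 mice, against 12.11, 11.79, 12.41, 11.49 and 12.60 in the 5 saline mice (FCH 169.9, adjusted p = 0.000364). IMO-8400 mice 3 and 5 stood well above the other IMO-8400 mice, and all saline mice lay above 11. Uox kept its call at a log2 fold change of -6.76 without IMO-8400 mouse 2 or -8.24 without IMO-8400 mouse 5 (all mice, -7.41). Slc26a4, the anion exchanger pendrin, had values of 7.74, 6.73, 9.22, 7.49 and 9.34 in saline mice and was at the floor in all 5 IMO-8400 mice, at least 34.4-fold lower. Reg1 and Reg3g, secreted C-type lectins of injured epithelia, were likewise at the floor in IMO-8400 mice, at least 19.4-fold and 11-fold lower. Saline mouse 4 was low in both, at 2.90 for Reg1 and 3.32 for Reg3g. Reg1 kept its call at a log2 fold change of -6.33 without saline mouse 4 (all mice, -5.24). Reg3g kept its call at a log2 fold change of -5.22 without saline mouse 4 (all mice, -4.44). Pla2g4d (-4.90), a phospholipase A2, Ptx3 (-4.80), a long pentraxin, Car4 (-4.52), a carbonic anhydrase, and Steap1 (-4.67), a metalloreductase, also fell. So did Ubd (-4.48), a ubiquitin-like protein, Cdhr1 (-4.79), a protocadherin-like protein, Lce3b (-5.43) and Sprr2j-ps (-5.64), a pseudogene of the Sprr2 family. The rule that named these genes required groups without overlap. Lce3b kept its call at a log2 fold change of -4.79 without IMO-8400 mouse 4 (all mice, -5.43).

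The largest rises were spread over many functions. Serpina12, the protease inhibitor vaspin, had values of 12.87, 12.44, 12.09, 12.74 and 12.29 in the 5 IMO-8400 mice, against 4.06, 7.15, 6.72, 7.40 and 7.25 in the 5 saline mice (FCH 62.6, adjusted p = 4.7e-07). Saline mouse 1 was the lowest of its group, and the groups lay far apart. Serpina12 kept its call at a log2 fold change of 5.35 without saline mouse 1 (all mice, 5.97). Cfap57, a cilium-associated protein, averaged 9.97 ± 0.57 in IMO-8400 mice and 3.04 ± 0.79 in saline mice at 1 probe-set (log2 fold change 6.93) and rose by 2.68 at its brighter one, so the size of its change depends on the probe-set. Gng4, a G protein gamma subunit, averaged 9.52 ± 0.35 in IMO-8400 mice and 4.44 ± 1.41 in saline mice and rose by 5.07.

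Car6 (4.46), a secreted carbonic anhydrase, Fmo2 (4.31), a flavin monooxygenase, Kcna1 (4.10), a potassium channel, and Spock2 (4.08), a proteoglycan, also rose. So did Dab1 (4.07), a reelin adaptor, Cbs (3.92), cystathionine beta-synthase, Ces1f (3.74), a carboxylesterase, and Inmt (3.57), an amine methyltransferase. Absence of overlap was again a condition of the naming rule. Cbs kept its call at a log2 fold change of 4.58 without saline mouse 4 (all mice, 3.92). Inmt kept its call at a log2 fold change of 2.98 without saline mouse 2, 2.65 without saline mouse 3 or 4.25 without saline mouse 4 (all mice, 3.57). Hamp2, a hepcidin gene, met neither naming rule because its saline mean of 2.74 was below 3 while 2 saline mice were above it, and it was named after its values were seen. Its values were 10.08, 9.85, 9.27, 11.61 and 6.51 in the 5 IMO-8400 mice, against 3.17, 3.50, 2.26, 2.37 and 2.37 in the 5 saline mice, a rise of 6.73 (adjusted p = 2.07e-05). Hamp2 kept its call at a log2 fold change of 7.47 without IMO-8400 mouse 5 (all mice, 6.73). The saline to naïve difference of Hamp2 was -10.65 (95% CI -12.27 to -9.03).

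Other probe-sets with saline values near background had small lower bounds, and these describe the probe-set and not always the gene. Colec11, a collectin, AI854703 and the RIKEN transcripts 9130409I23Rik and 2610206C17Rik were at least 3.02-fold, 3.06-fold, 3.3-fold and 2.16-fold higher in IMO-8400 mice at the probe-set the rule named. 9130409I23Rik lost its call when IMO-8400 mouse 1, 2 or 5 or saline mouse 2 or 3 was left out (log2 fold change 1.72 to 2.28, adjusted p = 0.0516 to 0.0901). A second Colec11 probe-set rose by 1.14, with a saline mean of 4.33. Nectin3, an adhesion molecule, Kcna2, a potassium channel, Cplx2, a complexin, and Limch1 were at least 2.85-fold, 2.17-fold, 2.12-fold and 2.04-fold higher at a dim probe-set each. Of these 8 probe-sets, all but that of 9130409I23Rik lost their call with values under 4 set to 4, at log2 fold changes of 0.66 for Colec11, 0.61 for AI854703, 0.40 for 2610206C17Rik, 0.51 for Nectin3, 0.49 for Kcna2, 0.29 for Cplx2 and 0.23 for Limch1. Brighter probe-sets put some of these genes well above background in both groups. Limch1 rose by 1.44 at a probe-set with means of 10.78 in IMO-8400 mice and 9.35 in saline mice, and by 1.45 at another. Nectin3 differed by 0.87 without passing at its brightest probe-set, with means of 9.01 in IMO-8400 mice and 8.13 in saline mice, and rose by 1.12 at another. A second Kcna2 probe-set rose by 3.56, with means of 6.60 in IMO-8400 mice and 3.03 in saline mice. With IMO-8400 near background, Sh2d5, an adaptor protein, was at least 11.2-fold lower.

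In lists of other skin compartments a minority of genes was called higher with IMO-8400. The log2 fold change was positive in 21 of 21 tested skeletal muscle genes and 15 of 15 tested adipocyte genes. Of skeletal muscle genes, 8 of 21 tested genes rose, 0 fell and 13 did not pass (median 0.97). Ttn (1.55), titin, Myh2 (1.39), a fast myosin, Tcap (1.35), a sarcomere protein, and Pygm (1.31), muscle glycogen phosphorylase, changed most, and Tnni2 averaged 15.15 ± 0.07 in IMO-8400 mice and 14.80 ± 0.16 in saline mice without passing. The list mean was 13.30 to 13.66 in IMO-8400 mice and 12.24 to 12.91 in saline mice, without overlap, and 12.43 to 13.82 in naïve mice. Of adipocyte genes, 5 of 15 tested genes rose, 0 fell and 10 did not pass (median 0.82), with Pck1 (3.26), Cidec (1.74), Slc2a4 (1.40) and Retn (1.22) changing most, and Fabp4 at 14.28 ± 0.11 in IMO-8400 mice and 13.58 ± 0.14 in saline mice at its brightest probe-set. At 2 other probe-sets Fabp4 rose, by 2.96 and 2.76. Pck1 kept its call at a log2 fold change of 2.47 without saline mouse 2 (all mice, 3.26). Retn lost its call when saline mouse 2 was left out (log2 fold change 0.98, adjusted p = 0.00341). Higher members numbered 3 without saline mouse 2. The adipocyte list mean was 10.28 to 10.73 in IMO-8400 mice and 8.85 to 9.95 in saline mice, without overlap. How much of either shift lies in the amount of muscle or fat in a piece of skin was not tested.

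Of sebaceous gland genes, 3 of 17 rose, Scd3 (2.52), Acsbg1 (1.37) and Fasn, at the 2-fold limit, with Scd1 at 14.51 ± 0.17 in IMO-8400 mice and 14.18 ± 0.14 in saline mice. Fasn lost its call when IMO-8400 mouse 1 or 2 or saline mouse 1, 2 or 3 was left out (log2 fold change 0.86 to 0.97, adjusted p = 0.00584 to 0.00787). Of Wnt ligands, receptors and inhibitors, 3 of 29 rose, Dkk2 (2.32), Wnt3 (1.69) and the pathway target Axin2 (1.39). Higher members numbered 5 without saline mouse 5 and 7 without saline mice 4 and 5. Hair genes gave 1 call of 28, Krt32 (3.59). Their list mean was 6.04 in IMO-8400 mouse 5 against 3.30 to 3.52 in the other IMO-8400 mice and 3.02 to 3.28 in saline mice. In naïve mice it ran over 3.57 to 12.83, so naïve animals differed widely in hair cycle genes. Every difference from naïve skin given here carries that spread. The fit shared its residual variance among all groups, so naïve spread also enters the adjusted p and intervals of IMO-8400 against saline. With the 2 groups alone, 1420 probe-sets were higher and 1217 lower, against 1380 and 1110 in the main fit. Calls of named genes moved both ways, with Gzma gained and Eomes lost. A missed call therefore does not show absence of change.

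**Figure D4:**
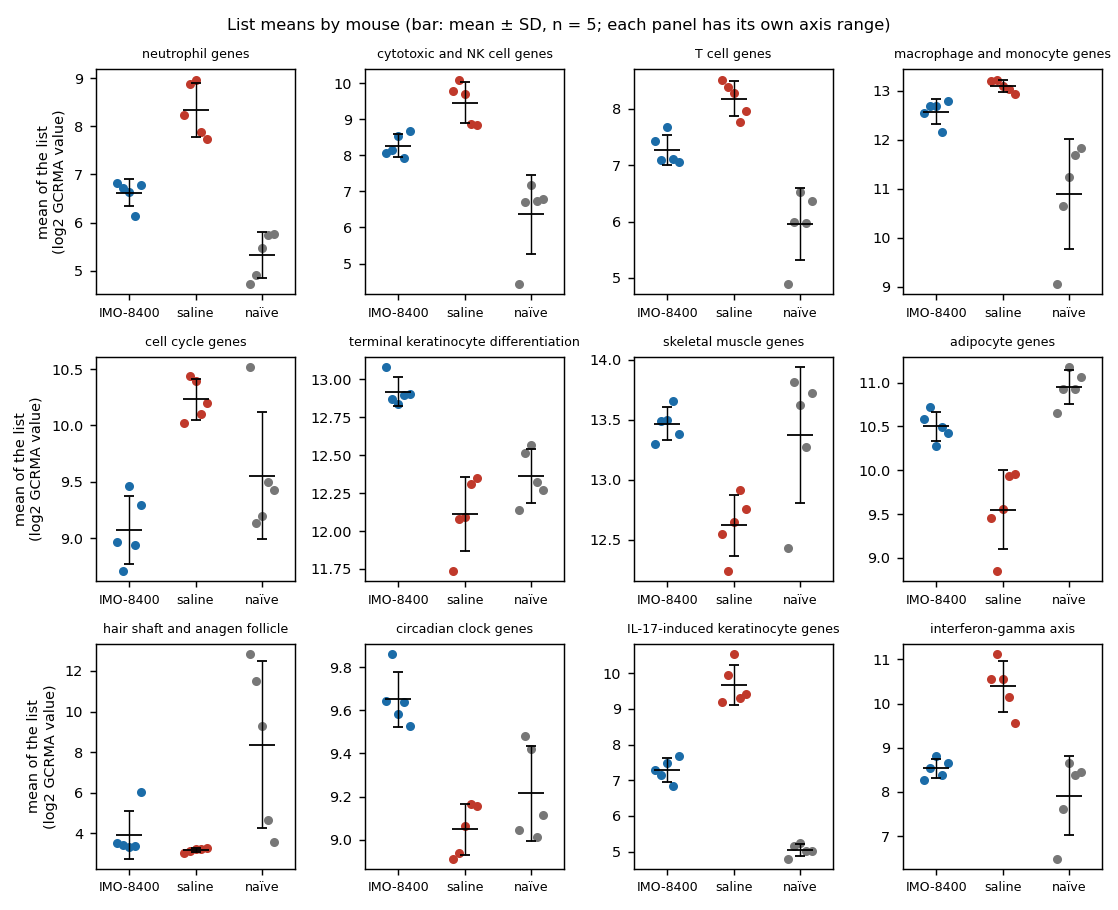
Mean log2 GCRMA value over the tested genes of 12 lists in IMO-8400, saline and naïve mice, 1 point a mouse, with the mean and SD as a bar (n = 5 each); each panel has its own vertical range. Neutrophil and cell cycle lists lie lower, and muscle, adipocyte and clock lists higher, in every IMO-8400 mouse than in any saline mouse, and the hair list spreads over 3.57 to 12.83 in naïve mice.

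Some changes were not on the IL-23 axis, in that saline and naïve means differed by less than 0.5 log2. That limit on means leaves room for individual differences, and the 95% intervals of the saline to naïve difference are given. The most marked was Scgb1b27, a secretoglobin also known as the androgen-binding protein alpha subunit, a small secreted protein known from saliva and lacrimal glands. It had values of 10.84, 9.73, 9.20, 9.70 and 9.07 in the 5 IMO-8400 mice, against 2.44, 2.03, 2.44, 2.25 and 2.22 in the 5 saline mice. It was near background in all saline and all naïve mice (naïve 2.12 ± 0.18) and was at least 105-fold higher in IMO-8400 mice (adjusted p = 5.93e-11). The saline to naïve difference was 0.15 (95% CI -0.51 to 0.82). IMO-3100 mice averaged 8.94 ± 0.76, the lowest of them at 8.28, so the transcript was above background in every mouse given either oligonucleotide. The partner subunit gene Scgb2b27 had values of 5.59, 3.24, 3.34, 3.12 and 3.91 in the 5 IMO-8400 mice, against 2.29, 2.02, 2.02, 2.04 and 2.12 in the 5 saline mice, higher without overlap but close to the floor, at least 1.79-fold (adjusted p = 0.0071). Its call was lost with values under 4 set to 4. Both genes belong to a family of near-identical copies on chromosome 7, and the probe-sets may not separate the copies.

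In the RefSeq annotation of GRCm38.p6 the 2 starts lie 7539 bases apart and the genes are transcribed away from each other. Their promoters are shown, written as above, because the pair rose together and both lay near background in saline skin. Windows lie at chr7:34021231-34021530, plus strand (Scgb1b27) and chr7:34013893-34014192, minus strand (Scgb2b27).
Scgb1b27: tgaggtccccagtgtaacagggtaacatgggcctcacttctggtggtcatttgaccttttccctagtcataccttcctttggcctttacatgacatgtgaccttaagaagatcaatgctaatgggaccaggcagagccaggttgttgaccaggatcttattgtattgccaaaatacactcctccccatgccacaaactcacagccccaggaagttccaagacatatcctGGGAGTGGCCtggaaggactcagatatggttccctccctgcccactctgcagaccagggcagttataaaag
Scgb2b27: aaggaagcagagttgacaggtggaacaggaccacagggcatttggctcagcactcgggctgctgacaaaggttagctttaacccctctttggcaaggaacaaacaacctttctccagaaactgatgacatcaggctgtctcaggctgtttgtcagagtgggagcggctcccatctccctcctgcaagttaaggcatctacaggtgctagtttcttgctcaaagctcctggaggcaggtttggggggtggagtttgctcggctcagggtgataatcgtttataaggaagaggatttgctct
The Scgb1b27 window held 1 match to the NF-kB letters, in capitals, and the Scgb2b27 window none of the 3 motifs.

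Further rises off the axis were smaller. Ugt3a2, a UDP glycosyltransferase, had values of 5.56, 6.49, 3.73, 5.17 and 3.28 in IMO-8400 mice and was near background in saline and naïve mice, at least 3.59-fold higher (adjusted p = 0.00141). Acsm1, a medium-chain acyl-CoA synthetase, averaged 6.50 ± 0.62 in IMO-8400 mice and 3.92 ± 0.46 in saline mice, with 3.78 ± 0.68 in naïve mice (log2 fold change 2.58, adjusted p = 0.000139). Mybpc3, the cardiac myosin-binding protein, averaged 5.47 ± 0.64 in IMO-8400 mice and 2.87 ± 0.13 in saline mice, with 2.46 ± 0.09 in naïve mice, and Lmod2, a leiomodin of striated muscle, averaged 10.41 ± 0.35 in IMO-8400 mice and 8.72 ± 0.24 in saline mice. Both are genes of striated muscle, and the skeletal muscle list given above moved the same way; its part in these rises was not tested. Cacna1e (1.99), a calcium channel, and Pisd-ps3 (1.68), a pseudogene, completed the 10 largest off-axis rises with Tef and Per3.

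Falls off the axis had other members. Pi15, a secreted peptidase inhibitor, had values of 5.00, 4.65, 4.93, 5.04 and 5.56 in the 5 IMO-8400 mice, against 7.46, 6.94, 8.24, 7.00 and 7.78 in the 5 saline mice (log2 fold change -2.45, 95% CI -3.25 to -1.64, adjusted p = 0.000266), and its saline to naïve difference was 0.46 (95% CI -0.34 to 1.27). Adamts4, an aggrecanase, averaged 6.97 ± 0.75 in IMO-8400 mice and 9.30 ± 0.70 in saline mice (log2 fold change -2.33). Nrcam, a neuronal adhesion molecule, averaged 6.54 ± 0.80 in IMO-8400 mice and 8.53 ± 0.36 in saline mice at this probe-set, and its other 3 tested probe-sets, all dim, did not pass. Lrg1 (-1.72), a leucine-rich glycoprotein of the acute phase, Kif11 (-1.50), a mitotic kinesin, Rad51ap1 (-1.48), a recombination factor, and Prr5l (-1.48), an mTORC2 partner, also fell. The limit of 0.5 was met by the probe-set named, not by every probe-set of a gene. At 2 other probe-sets of Kif11 the means were 7.43 and 8.38 in saline mice and 5.82 and 7.81 in naïve mice, and at 2 of Rad51ap1 they were 5.88 and 7.59 in saline mice and 4.47 and 6.59 in naïve mice, so these 2 genes lay outside the limit there. Kif11 fell by 2.39 and 1.76 and Rad51ap1 by 2.37 and 2.19 on the log2 scale at those probe-sets. Per3 also lay outside the limit at 2 other probe-sets, with means of 9.183 and 6.812 in saline mice and 8.295 and 6.176 in naïve mice. So did a dim probe-set of Pi15, with means of 3.905 in saline mice and 2.954 in naïve mice. At 2 dim probe-sets of Nrcam the means were 3.415 and 2.039 in saline mice and 4.848 and 3.192 in naïve mice. The Pdia3 probe-set named by the rule averaged 4.66 ± 0.64 in IMO-8400 mice and 6.46 ± 0.23 in saline mice, whereas its far brighter probe-set differed by -0.26 without passing the FCH criterion. Snord89, a small nucleolar RNA locus, fell by 1.72 on the log2 scale. Snord89 lost its call when IMO-8400 mouse 2 or 4 or saline mouse 2 or 3 was left out (log2 fold change -1.51 to -1.69, adjusted p = 0.0536 to 0.0768).

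Of the clock genes, Tef, Per3 and Nfil3 met the off-axis limit at the probe-set named, and Hlf did not. In the circadian list, 6 of 17 tested genes rose, 1 fell and 10 did not pass (median 0.62), and the list mean was 9.53 to 9.86 in IMO-8400 mice and 8.91 to 9.17 in saline mice, without overlap, and 9.01 to 9.48 in naïve mice. The PAR bZIP factors bind D-box elements as activators and Nfil3 as a repressor of the same elements. Hlf, a PAR bZIP factor, averaged 9.87 ± 0.65 in IMO-8400 mice and 6.47 ± 0.79 in saline mice (log2 fold change 3.40, adjusted p = 2.12e-05), Dbp rose by 1.27, and Tef had values of 8.85, 9.58, 7.74, 8.17 and 8.93 in the 5 IMO-8400 mice, against 7.42, 6.52, 6.52, 6.62 and 6.59 in the 5 saline mice at the probe-set with the larger change (log2 fold change 1.92, 95% CI 1.14 to 2.70, adjusted p = 0.0012). Per3, a period gene, rose at all 4 tested probe-sets, by 1.11 at the brightest and 1.66 at the dimmest. The dimmest lost its call with values under 4 set to 4 (log2 fold change 0.74, adjusted p = 0.0493). Nr1d1 (1.38), the repressor REV-ERB alpha, rose, and Nr1d2 averaged 12.62 ± 0.08 in IMO-8400 mice and 11.95 ± 0.09 in saline mice without passing.

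Nfil3 had values of 9.12, 9.31, 9.27, 9.24 and 9.05 in the 5 IMO-8400 mice, against 10.78, 10.96, 11.31, 10.52 and 10.78 in the 5 saline mice (log2 fold change -1.67, 95% CI -2.21 to -1.13, adjusted p = 0.000243). The IMO-8400 values lay within a narrow band below all saline values, and naïve skin averaged 10.71 ± 0.70. The saline to naïve differences were 0.16 (95% CI -0.38 to 0.71) for Nfil3 and -0.42 (95% CI -1.20 to 0.36) for Tef, but -2.48 (95% CI -3.31 to -1.66) for Hlf, which therefore lay outside the limit. At another probe-set Dbp had means of 8.40 in saline mice and 6.87 in naïve mice, and Per3 lay outside the limit at the probe-sets given above. That Dbp probe-set did not pass for IMO-8400 over saline (log2 fold change 1.16, adjusted p = 0.0568). Core oscillator genes Arntl and Clock differed by 0.20 and -0.05 and did not pass. No source used here states the time of day of skin collection, and its part in these values was not tested.

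**Figure D5:**
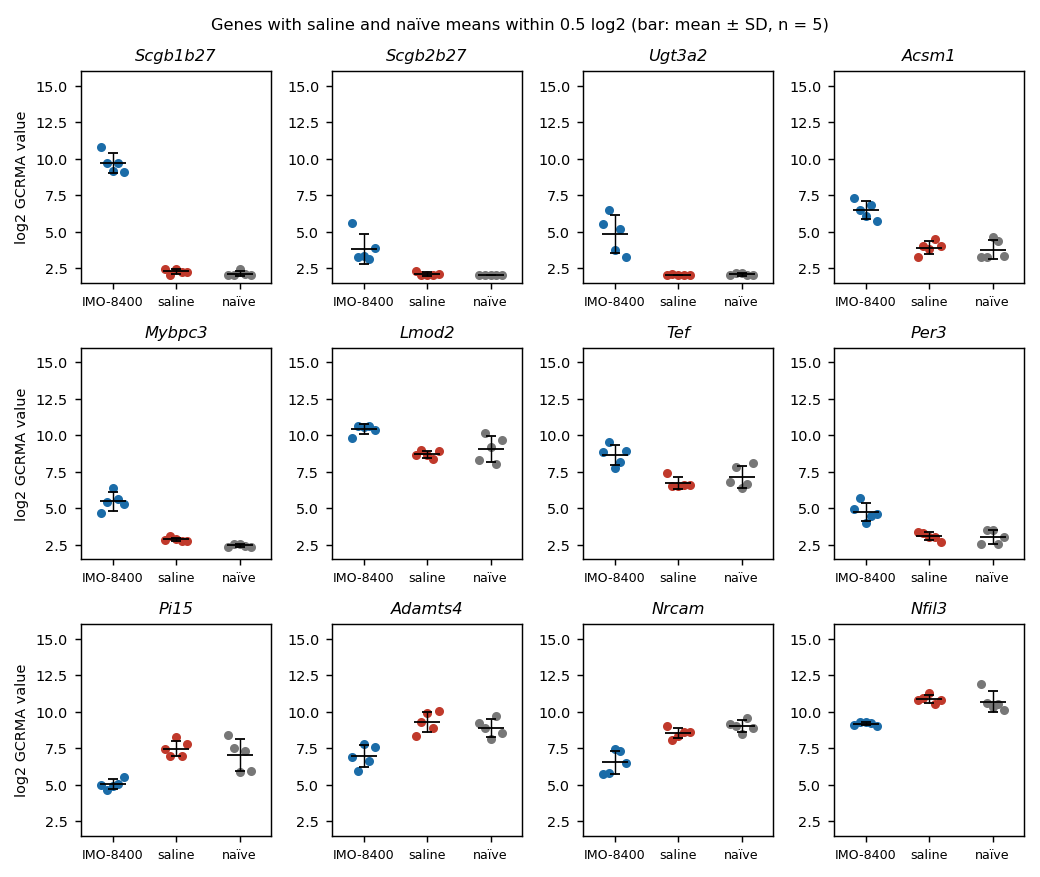
Log2 GCRMA values of 12 genes in IMO-8400, saline and naïve mice, 1 point a mouse, with the mean and SD as a bar (n = 5 each). At the probe-set shown, the saline and naïve means differed by less than 0.5. Scgb1b27 lies above 9 in every IMO-8400 mouse and below 3 in every saline and naïve mouse, and Nfil3 lies below 9.4 in every IMO-8400 mouse and above 10.5 in every saline mouse.

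Several lists held no called gene: cell-surface TLRs, class II, dendritic, B cell, complement, basal keratinocyte, cholesterol synthesis, respiratory chain and immediate early genes, and red blood cell genes. With shares of 4.57% higher and 4.16% lower among all genes, an empty short list is near the background. These zeros moved under other settings: leaving out single mice gave 1 or 2 calls in the basal keratinocyte, dendritic and immediate early lists. Fitting the 2 groups alone gave 2 lower cell-surface TLR genes and 1 lower gene each in the class II, complement and immediate early lists. Without saline mice 4 and 5, 3 basal keratinocyte genes were higher. Their brightest members averaged 13.92 ± 0.06 in IMO-8400 mice and 13.88 ± 0.07 in saline mice for Serping1, a complement inhibitor, 13.34 ± 0.04 in IMO-8400 mice and 13.23 ± 0.17 in saline mice for Hmgcs1 of sterol synthesis, 14.08 ± 0.07 in IMO-8400 mice and 14.29 ± 0.02 in saline mice for Uqcrc2 of the respiratory chain and 13.86 ± 0.12 in IMO-8400 mice and 13.54 ± 0.13 in saline mice for Klf6, an immediate early factor. Of 22 glycolysis and hypoxia genes Slc16a3 (-1.18), a lactate exporter, alone fell, and Aldoa averaged 15.03 ± 0.04 in IMO-8400 mice and 14.86 ± 0.06 in saline mice. Lower members numbered 2 without IMO-8400 mouse 2 or 3.

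Set directly against IMO-3100, IMO-8400 differed at few probe-sets: 103 were higher (0.333%) and 76 lower (0.245%). These counts moved with single mice, to 27 higher without IMO-8400 mouse 2 and 33 lower without IMO-3100 mouse 3. Lower in IMO-8400 were Gpr31b, a G protein-coupled receptor, at 2.48 ± 0.47 in IMO-8400 mice and 7.68 ± 0.22 in IMO-3100 mice (difference -5.20, adjusted p = 1.24e-09), and Klra2, a Ly49 family receptor, at 5.42 ± 1.73 in IMO-8400 mice and 9.68 ± 0.28 in IMO-3100 mice (adjusted p = 0.0105). Both also fell against saline, by 3.23 and 4.36. Cabp4, a calcium-binding protein, was at the floor in all IMO-8400 mice, near it in saline mice and at 5.54 ± 0.43 in IMO-3100 mice (adjusted p = 6.23e-11). Higher in IMO-8400 were genes of developing muscle, Actc1, cardiac alpha-actin, at 12.38 ± 1.26 in IMO-8400 mice and 6.64 ± 3.68 in IMO-3100 mice and Myh3, embryonic myosin, at 11.01 ± 1.70 in IMO-8400 mice and 5.94 ± 3.19 in IMO-3100 mice, with wide spread in both groups. Neither passed against saline (adjusted p = 0.297 and 0.308). Of the genes described above, Lipg was called lower than in IMO-3100 mice at 1 probe-set (7.55 ± 0.92 in IMO-8400 mice, difference -2.998, adjusted p = 0.00237), and Kcna1 (difference 2.04, adjusted p = 0.0432) and Alox15 (difference 2.04, adjusted p = 0.0364) higher at 1 probe-set each. The difference was 0.01 for Il6, 0.03 for Il17a, -0.65 for Mt4 and 0.77 for Scgb1b27, none of these 4 called, and a missed threshold does not show that the 2 compounds act alike.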

How the data were processed

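Skin RNA was hybridized to 20 Affymetrix mouse arrays, 5 a group, and the study's methods give 5 mice a group. The deposited log2 expression values were made by the authors with GCRMA, in a version the sources used here leave unstated (background correction by probe sequence, normalization between arrays and summary per probe-set), and were used as they stand. Of 45101 probe-sets, those above 2 in at least 3 arrays with an SD above 0.1 were tested (30960). Group means of all 20 arrays were fitted in limma 3.58.1 (R 4.3.3; moderated test, Benjamini-Hochberg FDR), following the study's methods, and the procedure was tested on simulated data. Alternatives covered filters, floor, scaling, samples in the fit, variance prior, probe-set choice and leaving out each mouse. No source names a batch or scan. Gene names came from the platform annotation: 34958 probe-sets with 1 symbol could be named, while 932 carried more than 1 symbol and 9211 carried no symbol. A gene was represented by its tested probe-set with the highest mean.

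Genes were named by rule: the largest changes without overlap, the largest bounds against background, the largest changes with saline and naïve means within 0.5, and the largest changes and the brightest uncalled member of each of 49 lists. Members, lists and rule were chosen with earlier results of these data known, so no list count is independent support. Probe-sets of near-identical families may cross-hybridize. Promoters came from RefSeq, matched by symbol, for 497 of 635 higher and 457 of 579 lower genes.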

Additional observations from a re-analysis of the deposited data

Results flagged for a closer look

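In 21 of 226 sets of 5 mice (IMO-8400 or saline, for the list means and the named genes), 1 mouse stood apart by Dixon's ratio, its gap to the nearest mouse over the range exceeding 0.71. Chance gives such a gap in about 5% of sets.

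IMO-8400 mouse 4 had the lowest list means of cell-surface TLRs, 9.65 (others 10.19 to 10.34), of neutrophil genes, 6.14 (others 6.64 to 6.82), of complement genes, 11.59 (others 11.81 to 11.85), and of endothelial and adhesion genes, 8.52 (others 8.79 to 8.84). The same mouse had the lowest Tlr7 value of its group. These lists share a mouse, and no cause was tested. IMO-8400 mouse 5 had the highest hair list mean, 6.04 (others 3.30 to 3.52), and the lowest Ces1f, 5.71 (others 6.96 to 7.14). IMO-8400 mouse 1 stood high in terminal differentiation, 13.08 (others 12.84 to 12.90). Its red blood cell list mean was flagged at 2.58 (others 2.11 to 2.14), but all these lay below 3, where values carry no order. IMO-8400 mouse 3 stood low in melanocyte genes, 4.83 (others 5.35 to 5.53), in metallothionein and zinc genes, 10.79 (others 10.91 to 10.94), and in Pisd-ps3, 10.02 (others 10.69 to 10.88). IMO-8400 mouse 2 was lowest in Cxcl9, 3.92 (others 4.69 to 4.84).

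Among saline mice, mouse 1 stood high in mast cell and basophil genes, 9.46 (others 8.85 to 8.93), and in Tef, 7.42 (others 6.52 to 6.62), and low in Serpina12, 4.06 (others 6.73 to 7.40). Saline mouse 2 stood high in endothelial and adhesion genes, 9.36 (others 9.06 to 9.14), and in Mybpc3, 3.08 (others 2.78 to 2.86). Saline mouse 4 stood high in Krt32, 4.36 (others 3.33 to 3.61), and in Cfap57, 4.43 (others 2.58 to 2.87), and low in Reg3g, 3.32 (others 6.72 to 7.71). Its red blood cell list mean was flagged at 2.49 (others 2.11 to 2.12), again all below 3.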

How the results depend on the processing

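The counts against saline stayed within 1.5 times under every alternative run, namely 2 other filters, values under 4 set to 4, 2 other scalings, the 2 groups alone, another variance prior, another probe-set per gene and leaving out mice. Leaving out 1 mouse gave 1181 to 1467 higher and 917 to 1167 lower probe-sets. Without saline mice 4 and 5, chosen after seeing the data, 1553 were higher and 1281 lower. The higher share of DEGs was 55.4% as reported, 51.3% with quantile normalization and 57.5% with a common 75th percentile. Against IMO-3100, leaving out 1 mouse gave 27 to 131 higher and 33 to 91 lower, no filter gave 59 higher and the 2 groups alone 198 lower. The cause was not tested. Of 231 named gene results, 192 kept their call under every alternative and none reversed, and 32 of 98 list counts moved by over 1.5 times under at least 1. No paired analysis was possible because the labels give no mouse numbers that tie arrays across groups. Values near the floor carry no order, and 5 arrays a group limit the precision.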
